A study of Mus musculus with 22 samples.

Results

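Notch and ephrin signals give arteries and veins their identity, and 10 genes of these pathways were followed in ischemic mouse muscle in which miR-210 was blocked. They were the Notch ligands Dll4 and Jag1, the receptors Notch1, Notch3 and Notch4, the Notch targets Hey1, Heyl and Hes1, the ephrin ligand Efnb2 and its receptor Ephb4. Every probe whose platform gene symbol is one of these names was taken, which gave 12 probes for the 10 genes, out of 38563 probes and 18524 named genes on the array. Dll4 and Notch4 were read by 2 probes each and the other genes by 1 probe.

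The data are 1 array of the gastrocnemius, a calf muscle, per mouse for 22 non-diabetic male C57BL/6N mice aged 8 to 12 weeks, all with ischemia of the hindlimb after removal of the femoral artery. On day 5 of ischemia 11 mice, called ANTI-210, were injected intraperitoneally with 12 mg/kg of an LNA-modified oligonucleotide against miR-210, and 11 mice, called SCR, with a scrambled LNA oligonucleotide at the same dose. LNA, locked nucleic acid, is a modified nucleotide that pairs tightly with RNA. The muscles were taken on day 7, so both groups carry the ischemia and an oligonucleotide injection, and no muscle without ischemia was measured here. The series text calls the reagents GAPmers and the methods call them inhibitors, and the injection was systemic, so it was not aimed at 1 cell type of the muscle.

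Notch signaling runs between touching cells. A ligand such as Dll4 or Jag1 on 1 cell binds a Notch receptor on its neighbour, the receptor is cut inside the membrane, and its intracellular part enters the nucleus and joins the DNA-binding protein Rbpj to switch on repressors of the Hes and Hey families. In blood vessels Dll4 and Notch4 are carried by endothelial cells and Notch3 by smooth muscle cells and pericytes, while Notch1 and Hes1 are also used by muscle stem cells and inflammatory cells. Notch activity in endothelial cells favours arterial identity, of which Efnb2 is a marker, and Ephb4 marks veins.

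The inhibited miRNA and the promoters of the closest pair among these genes are shown here. The miRNA is the molecule that the treatment targets, and the capitals mark its seed, bases 2 to 8, with which a miRNA pairs to its target transcripts. Mature miR-210-3p lies at chr7:141221407-141221428 on the minus strand of GRCm38.p6, and the sequence is the RefSeq entry of that build.
mmu-miR-210-3p: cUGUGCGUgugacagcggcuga
Jag1 and Efnb2 had the highest correlation among the members (values further on), so their promoters are printed from 250 bases before to 50 bases after the RefSeq start, for Jag1 at chr2:137116471-137116770 and for Efnb2 at chr8:8661193-8661492, both on the minus strand of GRCm38.p6. The capitals mark the HIF core GCGTG and the GC box GGGCGG, each searched on both strands, so a motif on the other strand appears as CACGC or CCGCCC.
Jag1: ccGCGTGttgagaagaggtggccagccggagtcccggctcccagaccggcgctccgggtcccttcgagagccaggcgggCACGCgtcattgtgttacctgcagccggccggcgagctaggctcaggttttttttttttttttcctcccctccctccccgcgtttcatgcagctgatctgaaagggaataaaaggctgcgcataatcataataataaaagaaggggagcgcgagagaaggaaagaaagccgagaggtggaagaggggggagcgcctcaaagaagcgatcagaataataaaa
Efnb2: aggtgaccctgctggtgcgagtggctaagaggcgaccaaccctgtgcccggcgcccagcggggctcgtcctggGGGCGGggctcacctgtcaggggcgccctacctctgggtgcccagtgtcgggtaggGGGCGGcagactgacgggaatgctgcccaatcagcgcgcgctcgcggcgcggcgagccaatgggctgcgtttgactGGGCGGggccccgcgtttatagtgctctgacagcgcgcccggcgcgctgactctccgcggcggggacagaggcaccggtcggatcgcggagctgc
The Jag1 promoter holds 2 matches of GCGTG and 0 of GGGCGG at 55.7% G and C, and the Efnb2 promoter holds 0 of GCGTG and 3 of GGGCGG at 72.3% G and C. The median of all 32851 promoters of this length was 52.7% G and C. RefSeq promoters matched 7 of the 10 members, and those of Hey1, Heyl and Hes1 were not among them. GCGTG was found in 5 of the 7 (Dll4, Jag1, Notch1, Notch3 and Notch4), against 32.4% of all promoters. GGGCGG was found in 5 of the 7 (Dll4, Notch1, Notch3, Efnb2 and Ephb4), against 35.7%. The other HIF core, ACGTG, was in 1 of the 7 (Notch3), against 19.6%. The core that Rbpj binds, TGGGAA, was in 0 of the 7, against 25.6% of all promoters. All 7 promoters lay above the median in G and C, at 55.7% to 72.3%, and GCGTG and GGGCGG consist mostly of G and C. The shares of all promoters were not matched for G and C. These are matches of letters in a short window, and no binding was measured.

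The values are log2 intensities of each probe after quantile normalization, so a log2 difference of 1 is a 2-fold difference, and levels are compared for 1 probe between mice, not between probes. A probe with a mean under 6 over all mice was called near the floor, as 62.6% of all probes were. The muscle markers matched the labelled tissue, with 13 measured genes of mature fibres at means of 10.94 to 15.29. Arrays correlated with each other at r = 0.947 to 0.997. The first principal component of all probes held 63.6% of the variance, and the second, with 7.31%, separated mice of replicate numbers 1 to 3 from those of numbers 4 to 11. The labels give no batch, so the sets of numbers are known only from these values.

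After miR-210 blocking, none of the 10 genes passed the test at its brightest probe. ANTI-210 minus SCR differences ran from -0.066 for Notch1 to 0.23 for Dll4, 8 were above 0 and 2 (Notch1 and Hes1) below it, and their median was 0.065, beside a median of -0.0036 over all 18524 genes. At an unadjusted limma p under 0.05, 0 of 10 members were called, beside 3.47% of all genes (1.45% higher and 2.01% lower in ANTI-210) and 3.41% of all probes. After Benjamini-Hochberg adjustment 2 of the 38563 probes were called, neither from a member, and the adjusted p of every member probe was 1. In every member the values of the 2 groups overlapped.

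**Figure D1:**
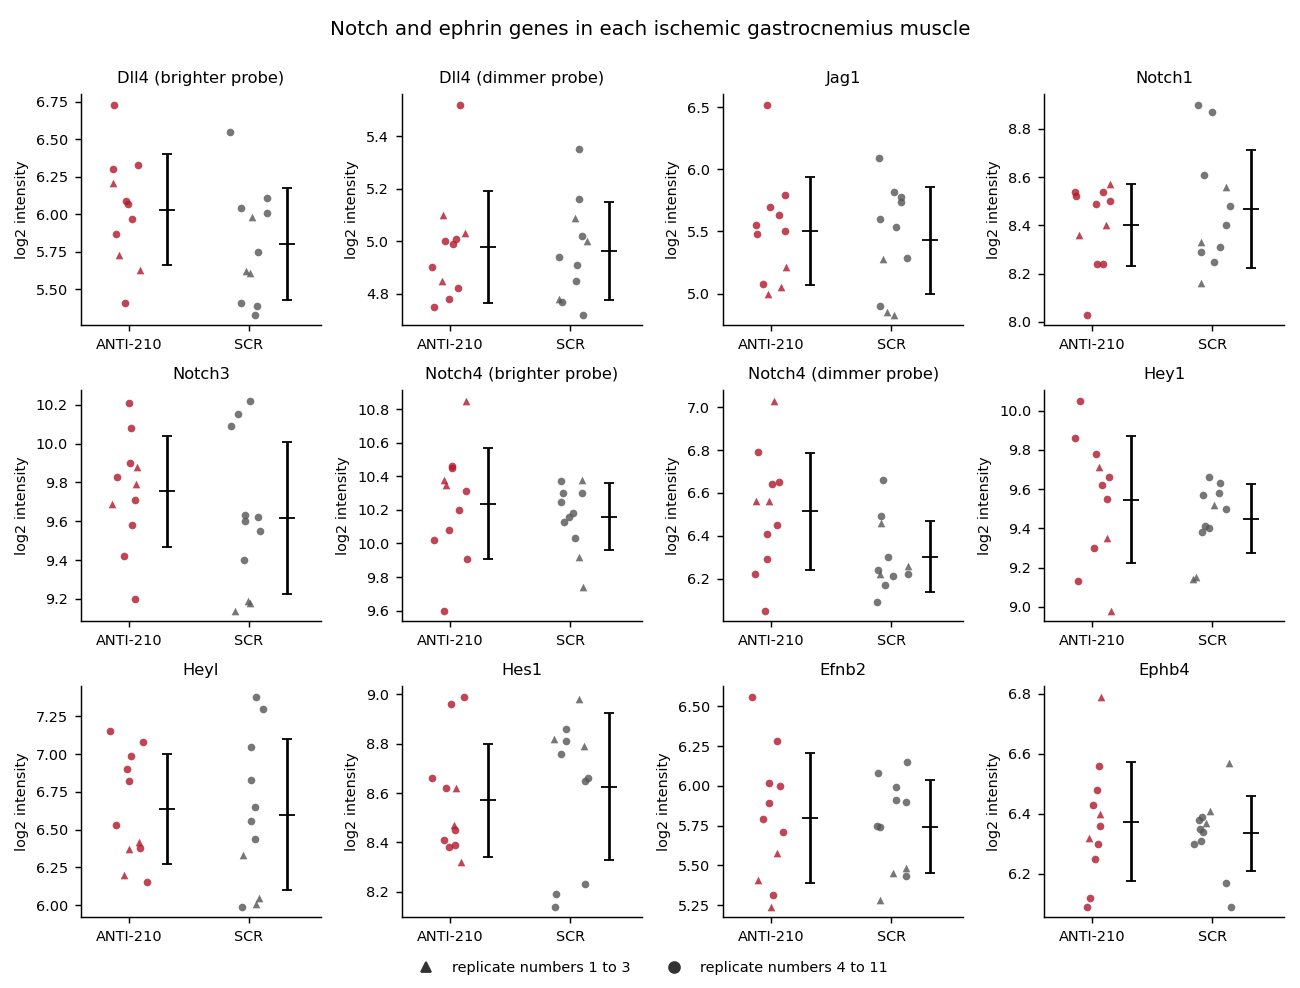
Log2 intensity of the 12 probes in each muscle, ANTI-210 (red) left of SCR (grey), each panel on its own axis that does not start at 0. Each point is 1 mouse, triangles are replicate numbers 1 to 3 and circles 4 to 11, and bars are mean ± SD (n = 11 each). The groups overlap in every panel, and the SCR triangles of Notch3 are the 3 lowest SCR mice, at 9.14, 9.18 and 9.19.

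Among the ligands, Dll4, the endothelial ligand of sprouting and arterial vessels, had the largest difference of the 10. Its brighter probe ran from 5.41 over a median of 6.07 to 6.73 in the ANTI-210 muscles, and from 5.33 over 5.75 to 6.55 in the SCR muscles. The averages were 6.03 ± 0.37 in ANTI-210 and 5.80 ± 0.37 in SCR (SD, n = 11 each), a difference of 0.23 with a 95% interval of -0.087 to 0.55 (limma p = 0.146). Only 1 ANTI-210 mouse lay above the highest SCR mouse and none below the lowest. With the mean of 20 endothelial markers as a covariate the difference was -0.018. With the first principal component as the covariate it was 0.29 (p = 0.0230), and without replicate 10 of SCR it was 0.31 (p = 0.0431), both past the unadjusted threshold. The dimmer probe of Dll4 averaged 4.98 ± 0.21 in ANTI-210 and 4.96 ± 0.19 in SCR (difference 0.015, p = 0.863). Both probes lie near the floor and did not move together over the mice (r = -0.0492, permutation p = 0.829, rho = -0.0814, permutation p = 0.716).

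Jag1, the ligand that vessel wall and other cells present to Notch receptors, was also near the floor. It ran from 5.00 over 5.50 to 6.52 in ANTI-210 muscles and from 4.83 over 5.54 to 6.09 in SCR muscles. The averages were 5.50 ± 0.44 in ANTI-210 and 5.43 ± 0.43 in SCR (SD, n = 11 each), and the difference of 0.072 had an interval of -0.30 to 0.44 (p = 0.692). The highest mouse, replicate 6 of ANTI-210, stood above all others, and without it the difference was -0.030. Although dim, Jag1 varied more than 81.9% of the 2000 probes of nearest brightness.

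Of the receptors, Notch1, which is carried by many cell types, differed by -0.066 with an interval of -0.25 to 0.12 (p = 0.457). Its level ran from 8.03 over 8.49 to 8.57 in ANTI-210 and from 8.16 over 8.40 to 8.90 in SCR. The averages were 8.40 ± 0.17 in ANTI-210 and 8.47 ± 0.24 in SCR (SD, n = 11 each). As the plot of values by mouse shows, 3 SCR mice lay above the highest ANTI-210 mouse.

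Notch3, the receptor of the smooth muscle and pericyte coat, ran from 9.20 over 9.79 to 10.21 in ANTI-210 and from 9.14 over 9.60 to 10.22 in SCR. The averages were 9.75 ± 0.29 in ANTI-210 and 9.62 ± 0.39 in SCR (SD, n = 11 each), a difference of 0.14 with an interval of -0.15 to 0.43 (p = 0.338). The upper ends of the groups were alike, and the 3 lowest of the 22 mice were SCR mice.

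Notch4, a receptor largely restricted to endothelial cells, was the only gene with a probe past the unadjusted threshold. Its brighter probe ran from 9.60 over 10.31 to 10.85 in ANTI-210 and from 9.74 over 10.18 to 10.38 in SCR. It averaged 10.24 ± 0.33 in ANTI-210 and 10.16 ± 0.20 in SCR (SD, n = 11 each), with a difference of 0.077 and an interval of -0.16 to 0.31 (p = 0.501). The ANTI-210 mice spread wider at both ends. The dimmer probe ran from 6.05 over 6.56 to 7.03 in ANTI-210 and from 6.09 over 6.24 to 6.66 in SCR. It averaged 6.51 ± 0.27 in ANTI-210 and 6.30 ± 0.17 in SCR, and was higher by 0.21 (SE 0.094, interval 0.017 to 0.41, limma p = 0.0347, adjusted p = 1). That call was lost on leaving out 1 mouse in 9 of 22 cases, with differences of 0.16 to 0.26, and with the endothelial marker mean as a covariate the difference was 0.085 (p = 0.359). The 2 Notch4 probes moved together over the mice (r = 0.649, permutation p = 0.00106, rho = 0.575, permutation p = 0.00562), with r = 0.535 without the 2 farthest mice, 0.401 in numbers 4 to 11 and 0.956 in numbers 1 to 3.

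Of the 3 targets, Hey1, a repressor that Notch switches on in arterial endothelium, ran from 8.98 over 9.62 to 10.05 in ANTI-210 and from 9.14 over 9.50 to 9.66 in SCR. The averages were 9.55 ± 0.32 in ANTI-210 and 9.45 ± 0.18 in SCR (SD, n = 11 each), with a difference of 0.095 (interval -0.13 to 0.32, p = 0.385). The ANTI-210 mice lay on both sides of the SCR range, 4 above its highest mouse and 2 below its lowest.

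Heyl, a related repressor found in smooth muscle and muscle stem cells, ran from 6.15 over 6.53 to 7.15 in ANTI-210 and from 5.99 over 6.56 to 7.38 in SCR. The difference was 0.036 (interval -0.34 to 0.41, p = 0.841), with averages of 6.64 ± 0.36 in ANTI-210 and 6.60 ± 0.50 in SCR (SD, n = 11 each). Hes1, a repressor used in many tissues, ran from 8.32 over 8.47 to 8.99 in ANTI-210 and from 8.14 over 8.76 to 8.98 in SCR. Its averages of 8.57 ± 0.23 in ANTI-210 and 8.63 ± 0.30 in SCR (SD, n = 11 each) differed by -0.056 (interval -0.28 to 0.17, p = 0.612). The range of both genes in ANTI-210 lay almost wholly inside the SCR range.

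Efnb2, the arterial ephrin ligand, was near the floor. It ran from 5.24 over 5.79 to 6.56 in ANTI-210 and from 5.28 over 5.75 to 6.15 in SCR. The averages of 5.80 ± 0.41 in ANTI-210 and 5.74 ± 0.29 in SCR (SD, n = 11 each) differed by 0.057 (interval -0.25 to 0.36, p = 0.700). Its receptor Ephb4, the venous partner, ran from 6.09 over 6.36 to 6.79 in ANTI-210 and from 6.09 over 6.35 to 6.57 in SCR. The difference was 0.038 with the narrowest interval of the 10, -0.11 to 0.18 (p = 0.587), and averages of 6.37 ± 0.20 in ANTI-210 and 6.34 ± 0.13 in SCR (SD, n = 11 each). Ephb4 was the steadiest member, varying more than only 3.55% of the probes of nearest brightness.

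**Figure D2:**
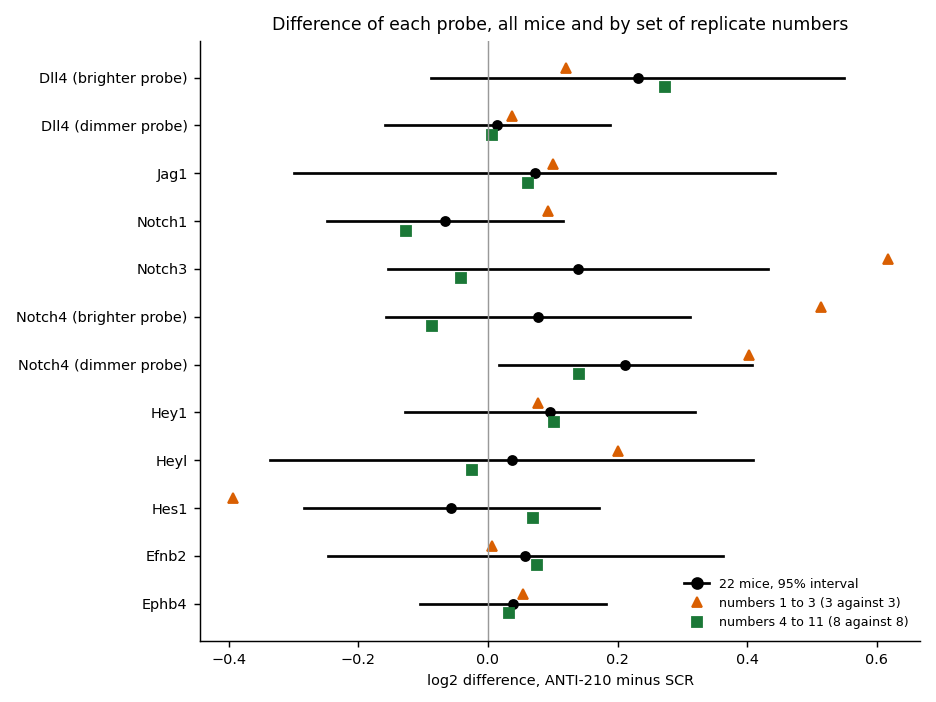
Log2 difference of each probe, ANTI-210 minus SCR, with its 95% limma interval over 22 mice (black), and the same difference within replicate numbers 1 to 3 (orange, 3 against 3) and 4 to 11 (green, 8 against 8). All intervals but that of the dimmer Notch4 probe cross 0, and the sets part most for Notch3, at 0.62 and -0.041.

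The differences of Notch3 and Notch4 varied between the sets of replicate numbers at an unadjusted p under 0.05, and neither passed after adjustment. At that threshold the set term called 2 of the 10 members, beside 12.2% of all genes. In numbers 1 to 3, Notch3 was at 9.69, 9.79 and 9.88 in the ANTI-210 muscles, against 9.14, 9.18 and 9.19 in the SCR muscles, so the groups did not overlap and differed by 0.62. In numbers 4 to 11 it averaged 9.74 ± 0.34 in ANTI-210 and 9.78 ± 0.32 in SCR (SD, n = 8 each), a difference of -0.041 (exact permutation p = 0.807). The difference between the sets was 0.66 (SE 0.27, limma p = 0.0236, adjusted p = 0.445). With the first principal component in the fit it was 0.22 (p = 0.124), and without replicate 1 of ANTI-210 it was 0.61 (p = 0.0546). With 3 against 3 an exact permutation test cannot give a p below 0.1. Notch3, Hes1 and the dimmer Notch4 probe all reached that value, each without overlap. The first principal component split the same mice, at 12.2 to 59.7 in ANTI-210 and at -36.7 to -21.9 in SCR. The share of all genes without overlap in the mice of numbers 1 to 3 was not counted.

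The brighter Notch4 probe differed by 0.51 in numbers 1 to 3, with averages of 10.53 ± 0.28 in ANTI-210 and 10.01 ± 0.33 in SCR (SD, n = 3 each, exact permutation p = 0.3). In numbers 4 to 11 the difference was -0.086 (exact permutation p = 0.472), and the sets differed by 0.60 (SE 0.22, limma p = 0.0147, adjusted p = 0.437). Without replicate 1 of SCR this was 0.46 (p = 0.0658), and without replicate 1 of ANTI-210 it was 0.44 (p = 0.0738). The dimmer Notch4 probe was higher in both sets, by 0.40 and 0.14, and its set term gave p = 0.208. Hes1 differed by -0.39 in numbers 1 to 3 and by 0.070 in numbers 4 to 11, with p = 0.0600 for the difference between sets.

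Most marker lists of the cells in the muscle moved with the same split, and their part in it was not tested. Each list is given as the mean deviation of its genes from their own averages. In numbers 1 to 3 the ANTI-210 muscles were above the SCR muscles by 0.93 for 7 macrophage markers, 0.87 for 6 fibroblast markers, 0.80 for 10 satellite cell and regenerating fibre markers, 0.77 for 3 Schwann cell markers, 0.40 for 5 adipocyte markers, 0.29 for 20 endothelial markers and 0.28 for 12 smooth muscle and pericyte markers. In numbers 4 to 11 the same differences were 0.016, -0.019, -0.14, 0.099, 0.18, 0.079 and 0.030. The 13 mature fibre markers went the other way, with -0.13 in numbers 1 to 3 and 0.055 in numbers 4 to 11. Over all mice the endothelial list ran from -0.17 to 0.27 in ANTI-210 and from -0.30 to 0.18 in SCR. Of its 20 genes 7 (Cdh5, Tek, Emcn, Esam, Robo4, Ly6c1 and Ramp2) were higher at an unadjusted p under 0.05, beside 1.45% of all genes. None of its genes was lower, none of the 7 passed after adjustment, and Kdr, Erg and Fli1 lay near the floor. Of these 7 the limma set term also called Cdh5 (p = 0.0347), Emcn (p = 0.00411), Esam (p = 0.00129) and Robo4 (p = 0.00132), but not Tek, Ly6c1 or Ramp2. It called 6 of the 20 endothelial genes in all, beside 12.2% of all genes. The macrophage list ran from -0.67 to 1.15 in ANTI-210 and from -1.25 to 1.19 in SCR. The fibroblast list ran from -0.62 to 0.75 in ANTI-210 and from -0.90 to 0.73 in SCR. The regenerating fibre list ran from -0.85 to 1.01 in ANTI-210 and from -1.15 to 1.10 in SCR. For the treatment difference 0 genes of these 3 lists were called. The smooth muscle and pericyte list ran from -0.057 to 0.16 in ANTI-210 and from -0.21 to 0.070 in SCR, with 0 of 12 genes called for the treatment difference. The set term called 2 of the 6 fibroblast and 2 of the 12 smooth muscle and pericyte genes. It called 0 macrophage and 0 regenerating fibre genes. In bulk muscle, fewer cells of a type and less RNA per cell cannot be told apart.

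The sets also lay at different levels for Jag1, Efnb2 and Heyl, with both treatments in each set. Jag1 lay at 4.83 to 5.28 in the 6 mice of numbers 1 to 3 and at 4.90 to 6.52 in the 16 of numbers 4 to 11. Efnb2 lay at 5.24 to 5.58 and at 5.31 to 6.56 in the same sets, and Heyl at 6.01 to 6.42 and at 5.99 to 7.38. Dll4, also near the floor, averaged 5.80 and 5.96 in the 2 sets and lay at 5.61 to 6.21 and at 5.33 to 6.73. Over the 22 mice the second principal component ran with Jag1 (r = 0.866), Efnb2 (r = 0.846) and Heyl (r = 0.646), as a description.

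Beyond treatment, the members varied together in a few pairs. All 45 pairs were correlated over the 22 mice, and 4 passed a permutation test of Pearson's r after Benjamini-Hochberg adjustment over the 45. The share of passing pairs among all genes was not counted. The closest pair was the ligands Jag1 and Efnb2, both near the floor (r = 0.813, permutation p = 1e-05, the smallest that 100000 resamples can give, adjusted p = 0.00045, rho = 0.739, permutation p = 0.00016). Without the 2 mice farthest from the median of Jag1 r was 0.705. Within numbers 4 to 11 it was 0.728 (permutation p = 0.00246, adjusted p = 0.0296), and within the 6 mice of numbers 1 to 3 it was 0.00628. It was 0.844 in ANTI-210 and 0.791 in SCR mice. The permutations took the 22 mice as exchangeable. With the replicate number as a block, the SE of the treatment difference fell from 0.147 to 0.056 for Efnb2 and from 0.179 to 0.088 for Jag1. Mice of the same number thus lay at like levels for both genes, which the permutation p of this pair does not allow for.

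Notch3 went with the target Heyl and against the target Hes1. For Heyl r was 0.735 (permutation p = 0.00021, adjusted p = 0.00315, rho = 0.703, permutation p = 0.00042), 0.650 without the 2 farthest mice, 0.748 in numbers 4 to 11 (adjusted p = 0.0254) and 0.527 in numbers 1 to 3. For Hes1 r was -0.770 (permutation p = 8e-05, adjusted p = 0.0018, rho = -0.735, permutation p = 0.00027), -0.727 without the 2 farthest mice, -0.754 in numbers 4 to 11 (adjusted p = 0.0254) and -0.848 in numbers 1 to 3. Among the ANTI-210 mice r was 0.414 for Heyl and -0.487 for Hes1, and among the SCR mice it was 0.917 and -0.926, a contrast that was not tested. After the first principal component was taken out of each gene, r of Notch3 and Hes1 was -0.264 (permutation p = 0.235) and that of Notch3 and Heyl 0.489 (permutation p = 0.0218).

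Jag1 and Heyl were the fourth pair (r = 0.664, permutation p = 0.00075, adjusted p = 0.00844, rho = 0.722, permutation p = 0.00032). Without the 2 farthest mice r was 0.810, but within numbers 4 to 11 it was 0.452 (permutation p = 0.0767), and within numbers 1 to 3 it was 0.828. No pair of a ligand with a receptor passed, and Efnb2 and its receptor Ephb4 gave r = -0.26. Dll4 and Notch4, ligand and receptor of endothelial cells, gave r = 0.288 (permutation p = 0.193, adjusted p = 0.414).

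**Figure D3:**
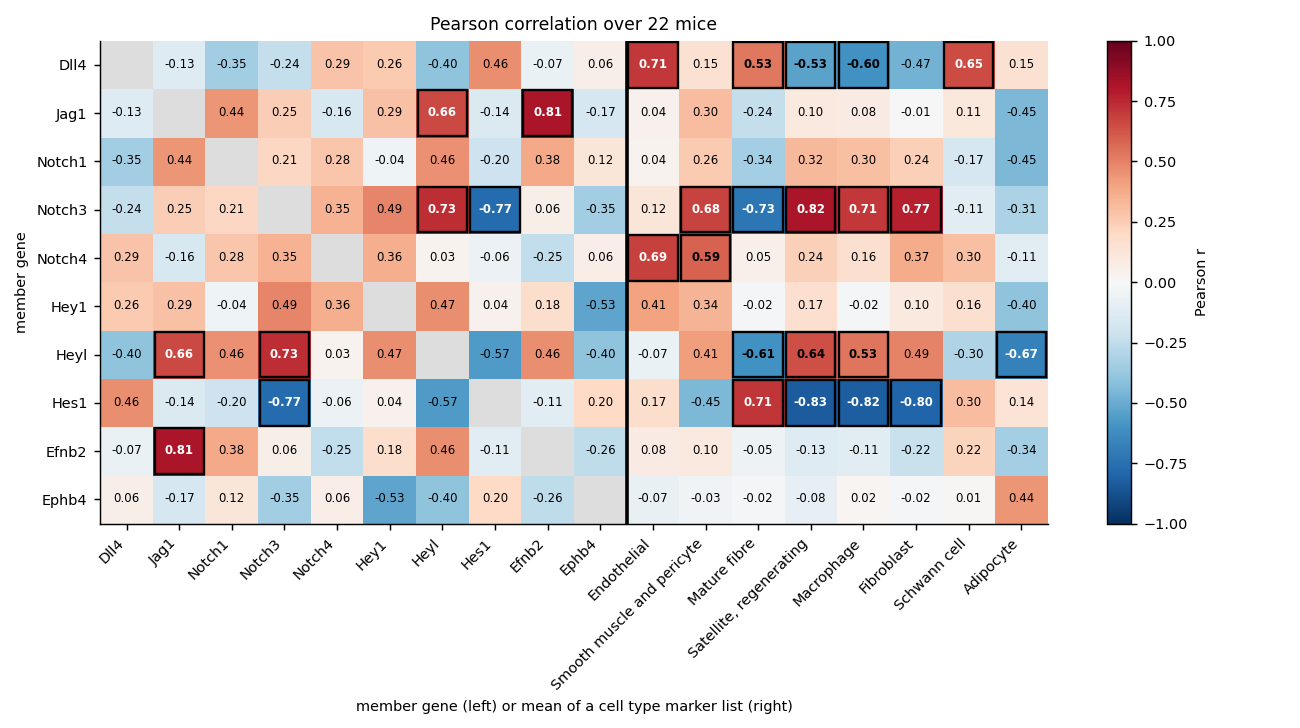
Pearson r over 22 mice of each member (rows) with the other members (left of the line) and with the mean of each cell type marker list (right of it), on a colour scale of -1 to 1. Boxes mark an adjusted permutation p under 0.05, which 4 of 45 pairs of members and 20 of 80 pairs with marker lists reached.

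The members went with markers of different cells of the muscle. Of 80 pairs of a member with 1 of 8 marker lists, 20 passed after adjustment over the 80, 12 of them positive and 8 negative. The share of all genes passing with the same lists was not counted, so these counts do not set the members apart from other genes. Within numbers 4 to 11 all 20 had the same sign and 17 passed again. Within numbers 1 to 3, 17 of the 20 had the same sign. After the first principal component was taken out of both sides, 14 of the 20 kept their sign, and r was 0.124 for Notch3 and -0.165 for Hes1 with the regenerating fibre markers, against 0.714 for Dll4 and 0.778 for Notch4 with the endothelial ones.

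Dll4 followed the endothelial markers (r = 0.709, permutation p = 0.0002, adjusted p = 0.00178, rho = 0.817, permutation p = 1e-05). Without the 2 farthest mice r was 0.718, in numbers 4 to 11 it was 0.750 and in numbers 1 to 3 it was 0.774. Dll4 also went with the 3 measured Schwann cell markers (r = 0.653, adjusted p = 0.00591) and against the macrophage markers (r = -0.604, adjusted p = 0.0144). It passed narrowly with the mature fibre (r = 0.531) and against the regenerating fibre markers (r = -0.532), both at an adjusted p of 0.0467. By rank neither of these pairs passed (rho = 0.332 and -0.491, adjusted permutation p = 0.348 and 0.0888). In numbers 1 to 3 these were at r = 0.202 and 0.0381, and after the first principal component was taken out at 0.0472 and 0.176. The macrophage relation was at r = 0.00991 in numbers 1 to 3 and at -0.197 after the first principal component was taken out.

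Notch4 followed the endothelial markers as well (r = 0.686, permutation p = 0.00047, adjusted p = 0.00313, rho = 0.638, permutation p = 0.00194). Its r was 0.520 without the 2 farthest mice, 0.540 in numbers 4 to 11 (adjusted p = 0.0904) and 0.983 in numbers 1 to 3. With the smooth muscle and pericyte markers it gave r = 0.591 (adjusted p = 0.0181), or 0.440 in numbers 4 to 11. Jag1, Notch1, Hey1, Efnb2 and Ephb4 passed with none of the 8 lists.

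Notch3 was high in muscles rich in markers of repair and low in those rich in mature fibre markers. It went with the satellite cell and regenerating fibre markers (r = 0.819, permutation p = 1e-05, adjusted p = 0.0002, rho = 0.800, permutation p = 2e-05), with 0.770 without the 2 farthest mice, 0.933 in numbers 4 to 11 and 0.836 in numbers 1 to 3. It also went with the fibroblast (r = 0.774, adjusted p = 0.0002), macrophage (r = 0.708, adjusted p = 0.00178) and smooth muscle and pericyte markers (r = 0.675, adjusted p = 0.00313). In numbers 4 to 11 the smooth muscle and pericyte pair no longer passed (r = 0.566, adjusted p = 0.0617). With the first principal component taken out, r was -0.0321 for the fibroblast, -0.487 for the macrophage and 0.529 for the smooth muscle and pericyte markers. With the mature fibre markers r was -0.726 (adjusted p = 0.0008).

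Hes1 ran the other way, against the regenerating fibre (r = -0.830, permutation p = 1e-05, adjusted p = 0.0002, rho = -0.791, permutation p = 5e-05), macrophage (r = -0.823, adjusted p = 0.0002) and fibroblast markers (r = -0.798, adjusted p = 0.00048), and with the mature fibre markers (r = 0.715, adjusted p = 0.00114). With the regenerating fibre markers r was -0.762 without the 2 farthest mice, -0.832 in numbers 4 to 11 and -0.949 in numbers 1 to 3. Heyl went with the regenerating fibre markers (r = 0.642, adjusted p = 0.00846) and against the adipocyte markers (r = -0.674, adjusted p = 0.00313, rho = -0.780, permutation p = 6e-05). For the regenerating fibre markers r was 0.889 in SCR mice, 0.236 in ANTI-210 mice and 0.158 after the first principal component was taken out. For the adipocyte markers r was -0.678 in numbers 4 to 11 and 0.476 in numbers 1 to 3. Heyl also passed with the macrophage (r = 0.533, adjusted p = 0.0471) and against the mature fibre markers (r = -0.609, adjusted p = 0.0101). By rank its regenerating fibre, macrophage and mature fibre pairs did not pass (rho = 0.538, 0.397 and -0.509, adjusted permutation p = 0.052, 0.227 and 0.0766). For the macrophage markers r was 0.110 in ANTI-210 mice, 0.790 in SCR mice and -0.307 after the first principal component was taken out. Notch3 and Hes1 were the members nearest to the first principal component, at r = 0.826 and -0.832.

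**Figure D4:**
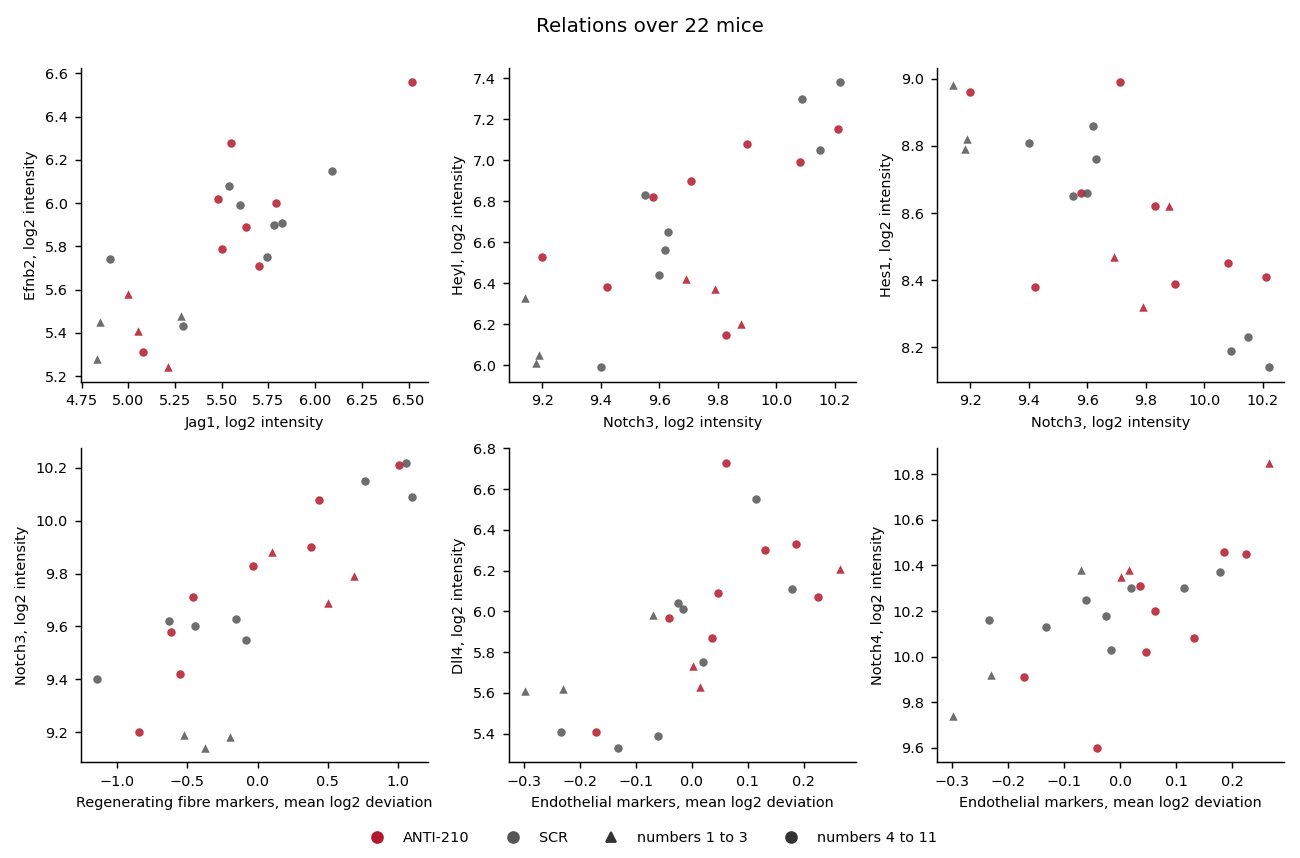
Each point is 1 muscle, ANTI-210 red and SCR grey, triangles for replicate numbers 1 to 3 and circles for 4 to 11. The upper panels set Efnb2 against Jag1, Heyl against Notch3 and Hes1 against Notch3 (log2 intensity on both axes, r = 0.813, 0.735 and -0.770), and the lower panels set Notch3 against the regenerating fibre markers and Dll4 and Notch4 against the endothelial markers (mean log2 deviation on the horizontal axis, r = 0.819, 0.709 and 0.686).

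For the members with a mean of 6 or more, the 3 genes of most similar profile over the 22 mice among 18523 others were found by Pearson's r, as a description. Those of Notch4 were 3 endothelial genes, Esam (r = 0.837) and Cdh5 (r = 0.777), which encode junction proteins, and Robo4 (r = 0.779), which encodes a receptor. In numbers 4 to 11 their r was 0.704, 0.550 and 0.536 for Esam, Cdh5 and Robo4. Those of Notch3 were Topbp1 (r = 0.958), Pcyox1l (r = 0.949) and Gdf9 (r = 0.943), of Hes1 Me3 (r = 0.914), Cep85 (r = 0.908) and Hdhd2 (r = 0.896), and of Heyl Rdh5 (r = 0.921), Nme1 (r = 0.920) and Trp53bp1 (r = 0.911). Those of Hey1 were Atp6v1g2 (r = 0.849), St8sia4 (r = 0.800) and Actrt1 (r = 0.785), and of Notch1 Arid2 (r = 0.823), Dis3 (r = 0.804) and Nfkb2 (r = 0.766). Ephb4 had the least similar ones, Nr4a2 (r = 0.731), Csn1s2b (r = 0.687) and Gja10 (r = 0.682).

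The other genes of these pathways were read in the same fit. Of 43 further Notch pathway genes 36 were measured, and 2 of them were higher and 2 lower at an unadjusted p under 0.05, beside 1.45% higher and 2.01% lower over all genes, with a median difference of 0.040. Numb, an adaptor that restrains Notch, differed by 0.10 (p = 0.0263), with means of 10.26 in ANTI-210 and 10.16 in SCR. Itch, a ubiquitin ligase that promotes Notch turnover, differed by 0.18 (p = 0.0204), with means of 6.11 in ANTI-210 and 5.92 in SCR. Maml3, a coactivator of the nuclear Notch complex read by a probe near the floor, differed by -0.23 (p = 0.0244), with means of 5.41 in ANTI-210 and 5.63 in SCR. Mib2, a ubiquitin ligase that acts on Notch ligands, differed by -0.12 (p = 0.0455), with means of 10.26 in ANTI-210 and 10.38 in SCR. All 4 had an adjusted limma p of 1.

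Of 18 further ephrin ligands and receptors 0 were called and 13 lay near the floor, and the brightest, Efna1, Efna5 and Efnb1, differed by 0.038, 0.030 and -0.030. Of 14 genes of arterial and venous identity 0 were called, with a median difference of 0.13, and all 8 arterial ones had a difference above 0. Of the 6 venous and lymphatic ones 4 lay above 0, with a median of 0.136 beside 0.127 for the arterial ones. Above 0 lay also 18 of the 20 endothelial markers and 8861 of all 18524 genes. The brightest of the 14 were Nrp1, a co-receptor of VEGF (0.16, p = 0.133), Aplnr, the venous apelin receptor (0.27, p = 0.211), and Cxcr4, a chemokine receptor of arterial endothelium (0.19, p = 0.469). The set term called 7 of these 14 genes, beside 12.2% of all genes. The list ran from -0.032 to 0.17 in ANTI-210 mice and from -0.32 to 0.31 in SCR mice, and its differences were 0.37 in numbers 1 to 3 and 0.039 in numbers 4 to 11.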

How the data were processed

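Total RNA (200 ng) of each muscle was labelled and hybridized to an Illumina MouseWG-6 v2 BeadChip. The deposited log2 values were made by the authors from bead summaries in GenomeStudio, quantile normalized and filtered with beadarray, with versions and filter thresholds not stated where they could be read here. Log2 was taken as the scale because values run from 4.35 to 15.4. Values of 1 rank differed between arrays by at most 0.07. The table held 0 further value columns. Detection p-values and chip positions were not used. Precision is limited by how many arrays there are and by how dim a probe is.

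Gene names came from the platform annotation (32093 probes with 1 symbol, 16 with several, 6454 with none). A gene with several probes was read at its brightest one by the mean of all 22 mice. ANTI-210 minus SCR was fitted over all probes with limma 3.58.1 (lmFit and eBayes, R 4.3.3, two-sided), with the methods' unadjusted threshold of 0.05 and Benjamini-Hochberg adjustment over all probes. A group by set term was fitted likewise and adjusted over all probes. Exact permutation tests were used within sets of replicate numbers, and 100000 resamples, two-sided, for correlations. Named genes are the members, the called genes of each pathway list or else its 3 brightest, and the 3 genes most like each brighter member. The members and lists were chosen with earlier results of these data known. The labels do not say whether cages or days were shared, so p-values measure the spread between these mice. The scripts were tested on simulated data.

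Alternatives were 3 other normalizations, another variance prior, array weights, a filter on dim probes, the mean of all probes, the replicate block, the methods' t-test, 3 covariates, both sets of replicate numbers and each mouse left out. Taking out the first principal component, and the alternatives of the set term, were chosen after seeing the data. Promoters and miRNA sequences are RefSeq entries on GRCm38.p6.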

Additional observations from a re-analysis of the deposited data

Results flagged for a closer look

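The ANTI-210 minus SCR difference of Notch3 was larger in replicate numbers 1 to 3 than in numbers 4 to 11 by 0.66 on the log2 scale (limma p = 0.0236, adjusted p = 0.445). In the first set Notch3 was higher in 3 of 3 ANTI-210 mice than in any SCR mouse. The exact permutation p there was 0.1, the smallest that 3 against 3 can give, and the share of all genes without overlap was not counted. Hes1, lower in ANTI-210, and the dimmer Notch4 probe, higher in ANTI-210, reached the same p without overlap. For the brighter Notch4 probe the sets differed by 0.60 (limma p = 0.0147, adjusted p = 0.437), with overlapping groups in the first set (exact permutation p = 0.3). This was lost without replicate 1 of SCR (0.46, p = 0.0658) and without replicate 1 of ANTI-210 (0.44, p = 0.0738), and the dimmer Notch4 probe gave p = 0.208. Both were singled out by an unadjusted p under 0.05 for the set term, which 12.2% of all genes also reached. Neither passed after adjustment. The groups of 11 were too large for the test of single mice that stand apart.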

How the results depend on the processing

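The count of 1316 probes past the unadjusted threshold was 3628 with array weights, 492 with the filter on dim probes and 2298 after adding the first principal component (PC1) to the fit, and ran from 1110 to 1792 with 1 mouse left out. The count of 0 member genes became 1 with array weights (Notch3, 0.26, p = 0.0383) and 1 with PC1 (Dll4, 0.29, p = 0.0230), and ran from 0 to 1 with 1 mouse left out (Dll4, 0.31, p = 0.0431, without replicate 10 of SCR). The 2 members whose difference depended on the set became 1 with PC1, where Notch3 gave 0.22 (p = 0.124), and ran from 1 to 3 with 1 mouse left out. Without replicate 1 of ANTI-210 the set difference of Notch3 was 0.61 (p = 0.0546).

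Small differences changed sign, none of them called before or after. These were Ephb4 at -0.013 with array weights, Heyl at -0.028 with PC1, Dll4 at -0.018 and Notch4 at -0.12 with the endothelial markers as a covariate, Notch1 at 0.093 within numbers 1 to 3, and Notch3 at -0.041, Notch4 at -0.086, Heyl at -0.025 and Hes1 at 0.070 within numbers 4 to 11. With 1 mouse left out the difference ran from -0.025 to 0.11 for Heyl, from -0.0035 to 0.066 for Ephb4, from -0.030 to 0.14 for Jag1 and from -0.019 to 0.11 for Efnb2. The cause was not tested.

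Over all probes, mice of the same replicate number did not deviate together (r from -0.664 to 0.641, over 0.1 in 4 of 11 pairs, and 2 of 22 mice closest to their own number). In single members it differed. A lower SE with the replicate block means that mice of the same number lay at like levels for that gene, and no further test of this was run. The replicate block lowered the SE of Efnb2 from 0.147 to 0.056, of Jag1 from 0.179 to 0.088 and of Hey1 from 0.108 to 0.067. It raised the SE of Notch3 from 0.141 to 0.156, of Notch4 from 0.113 to 0.132 and of Hes1 from 0.110 to 0.133. With the replicate block 1305 probes and 0 members passed. Repeated quantile normalization, cyclic loess and median centring changed no call of a member gene.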
